A study of Mus musculus with 8 samples.

Results

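The Hox genes are homeobox genes that lie in 4 clusters, Hoxa, Hoxb, Hoxc and Hoxd, and were taken here as every gene whose symbol is Hox, a letter from a to d and a number from 1 to 13. The number is the paralog group, which places a gene along its cluster. The genes described are the 37 with a probe set that names no other gene, of 19938 genes on the array with one. These were 10 genes of the Hoxa cluster (chromosome 6), 9 of Hoxb (chromosome 11), 9 of Hoxc (chromosome 15) and 9 of Hoxd (chromosome 2), each read by 1 probe set. Hoxb8 had no probe set of its own. The only probe set to name Hoxb8 also names Hoxb7, and its log2 fold change was 0.10 (standard error, SE, 0.07, adjusted p = 0.384 from limma).

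Hox proteins are transcription factors that give cells along the head-to-tail axis of the embryo their regional identity. Genes of low paralog number act towards the head and are switched on first, while genes of high paralog number act towards the tail, in the limbs and in the urogenital tract and are switched on later. In embryonic stem cells (ESCs) the clusters are held silent by polycomb complexes at CpG-rich DNA, and KDM2B is the subunit of a polycomb complex that binds unmethylated CpG through its zinc finger.

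Gene expression was profiled in E14 cells, a mouse ESC line that grows without feeder cells, kept in ES medium with 10 ng/mL LIF. The knockdown group was 4 samples, of passages 27 to 30, with a stable lentiviral shRNA against Kdm2b, and the control group was 4 samples, of passages 28 to 31, with a stable scrambled shRNA. Both groups thus carry an integrated shRNA, each group carries 1 shRNA sequence, and the replicates are described as biological replicates with no separate lines named, so that the p-values measure the spread among these samples. The 2 shRNA sequences are given here because they are the only designed difference between the groups.
shKdm2b: cgctgtggaaatatctgtcat
shScrambled: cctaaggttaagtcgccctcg

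RNA of each sample was read on 1 Affymetrix Mouse Gene 1.0 ST array, and every value below is a log2 signal after RMA normalisation, or a difference between such signals. The medians of the 8 arrays lay between 8.47 and 8.53, and arrays, unlike sequencing, have no read depth, so that their number limits the precision. The targeted gene was reduced, with Kdm2b signals of 8.68 to 9.45 in the knockdown arrays and 10.74 to 11.34 in the control arrays (log2 fold change -2.05, SE 0.18, adjusted p = 0.000891 from limma). All 10 ESC markers, among them Pou5f1, Nanog and Sox2, had mean log2 signals of 11.50 to 14.28. The summed linear signal of the ESC markers was 99157 to 102720 in the knockdown arrays and 83142 to 98325 in the control arrays. That of 9 neural markers was 4291 to 4646 in the knockdown arrays and 5183 to 6915 in the control arrays. Of the 9, 0 were higher and 2 lower at an adjusted p under 0.05 (limma), beside 5.93% and 4.8% of all genes. The lower ones were the neural factors Pax6 (log2 fold change -1.01, adjusted p = 0.0212) and Neurod1 (-1.59, adjusted p = 0.00859, both from limma). Values were positive for 4 of the 9, among them the tubulin gene Tubb3 (0.29, adjusted p = 0.0813), whose knockdown arrays all lay above its control arrays. The sums of 9 mesoderm markers (3416 to 3774 in the knockdown, 3314 to 3757 in the control), 10 fibroblast markers (4119 to 4923 in the knockdown, 3675 to 5073 in the control) and 10 primitive endoderm markers (4981 to 6743 in the knockdown, 5337 to 6327 in the control) overlapped between the groups, and no marker was at 0. Single markers of other lists were higher at an adjusted p under 0.05, namely the ESC factor Tbx3 (0.82), the surface protein Thy1 (0.72) and the endoderm factor Sox7 (0.40). Each was 1 of 10 in its list, beside 5.93% of all genes. When 1 array was left out, the calls on Tbx3, Sox7 and Pax6 were lost in 4, 6 and 3 of the 8 fits. With the replicate block Nes (-0.78, adjusted p = 0.0376, limma) also passed as lower. So did the most significant of 2 probe sets of Dab2 (-0.95, adjusted p = 0.0382, limma), whose mean over both was -0.43. Gata4 (0.40, adjusted p = 0.0272), Gata6 (0.32, adjusted p = 0.0243), Pdgfrb (0.47, adjusted p = 0.0383) and Pdgfra (0.22, adjusted p = 0.0444) then passed as higher (limma). With the block 4 of 10 primitive endoderm, 2 of 10 fibroblast and 1 of 9 mesoderm markers were higher, beside 7.95% of all genes. In bulk RNA, a change in the share of cells that express a gene and a change in its RNA per cell cannot be told apart, and the part of these markers in the Hox values was not tested.

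No Hox gene changed by the study's own criterion in the Kdm2b knockdown. The highest value was that of Hoxc13, at a log2 fold change of 0.52, and the lowest that of Hoxd10, at -0.16. That criterion required an adjusted p under 0.05 in the majority of a gene's probe sets and at least a 1.5-fold change of the best one, and it called 2.85% of all genes, 1.42% higher and 1.43% lower. Without the fold limit, 1 of 37 Hox genes was higher at an adjusted p under 0.05, namely Hoxc12, and none was lower, against 5.93% of all genes higher and 4.8% lower. With an unadjusted p below 0.05, 8 Hox genes stood higher in the knockdown and 0 stood lower. This is 21.6% of the Hox genes, beside 16.8% higher and 13.6% lower among all genes. Same-numbered arrays of the groups deviated together, and with a block for that number 6 Hox genes (16.2%) stood higher, beside 18.8% of all genes, since Hoxc9 (unadjusted p = 0.0757) and Hoxd12 (unadjusted p = 0.0749) then missed the limit (limma). The moderated test of limma over all 35556 probe sets was used for each of these counts.

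The Hox probe sets were dim. Their mean log2 signal ran from 6.34 for Hoxc4 to 8.97 for Hoxb3, and 31 of 37 lay below the lowest array median. RMA compresses fold changes at such signals, so that the Hox genes were also set beside the 8059 genes whose mean signal lay in the same range. Of those genes, 16.2% stood higher and 6.38% lower with an unadjusted p below 0.05, and 4.48% and 2.72% with an adjusted p below 0.05. The criterion of the study called 2.25% of them, 0.943% higher and 1.3% lower. The median log2 fold change was 0.09 over the Hox genes, 0.07 over the genes of their signal range and 0.05 over all genes. Of the Hox genes, 30 of 37 (81.1%) had a positive log2 fold change, as had 74.9% of the genes in the range and 61.7% of all genes. The family as a whole therefore lay close to other genes of the same brightness.

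**Figure D1:**
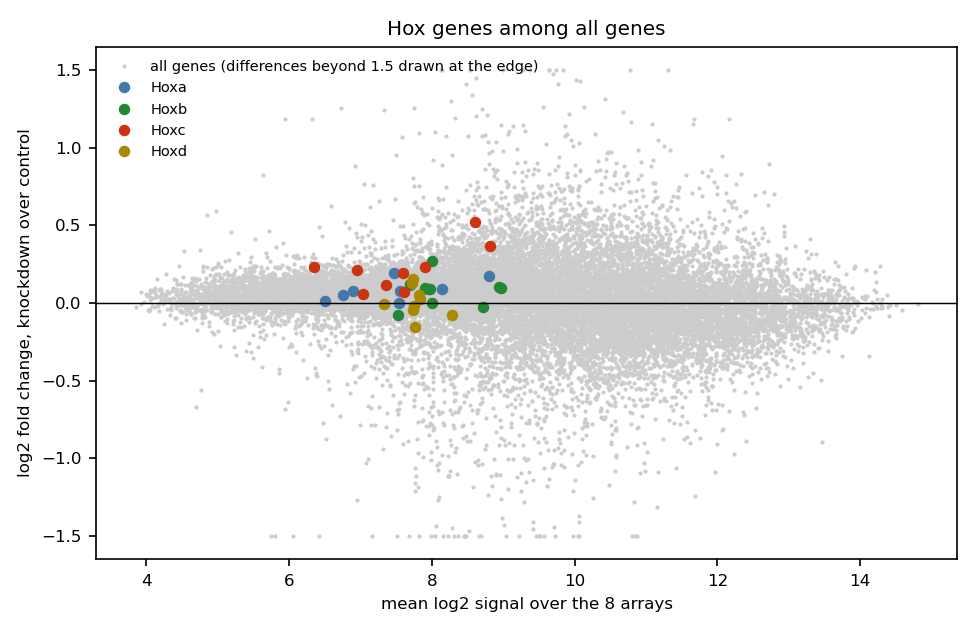
Mean log2 signal over the 8 arrays (horizontal axis) and log2 fold change of knockdown over control (vertical axis), with 1 point per gene. The coloured points are the 37 Hox genes by cluster, which lie between signals of 6.34 and 8.97 and between log2 fold changes of -0.16 and 0.52, and the grey points are all 19938 genes.

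The fit without the block also bounds the size of a change in the RMA signal. The SE of a Hox log2 fold change ran from 0.05 to 0.16, with a median of 0.08. The 95% confidence interval held 0 for 29 of 37 genes. For 35 of 37 genes the whole interval lay within a 1.5-fold change in either direction (0.585 on the log2 scale), and only the upper limits of Hoxc12 (0.59) and Hoxc13 (0.86) passed it. These limits apply to the RMA signal as deposited. Since RMA compresses fold changes at such signals, they do not bound a change in RNA.

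**Figure D2:**
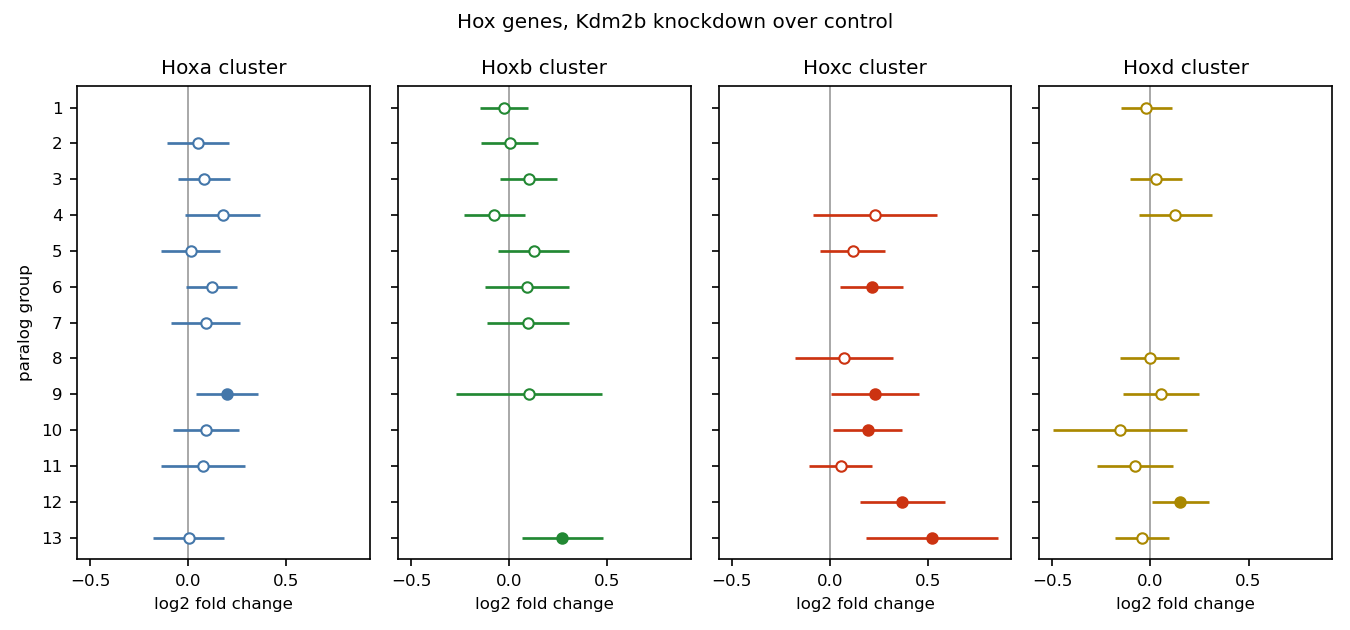
Log2 fold change of knockdown over control (horizontal axis) for each Hox gene by paralog group (vertical axis) and cluster (panel). Points are estimates and bars 95% confidence intervals from limma, with n = 4 arrays per group, and filled points have an unadjusted p under 0.05. Of the 8 filled points, 5 are in the Hoxc cluster and 7 are in paralog groups 9 to 13.

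By cluster, the Hoxc genes had the highest median log2 fold change, at 0.21, with 9 of 9 genes positive and 5 of 9 (55.6%) higher at an unadjusted p under 0.05. The median was 0.08 in the Hoxa cluster, with 10 of 10 genes positive and 1 gene with an unadjusted p under 0.05. It was 0.10 in the Hoxb cluster, with 7 of 9 genes positive and likewise 1 such gene. The Hoxd cluster had a median of -0.00398, with 4 of 9 genes positive and 1 such gene. Outside the Hoxc cluster 3 of 28 genes (10.7%) were higher at an unadjusted p under 0.05, beside 16.8% of all genes. This count was 2 (7.14%) with the replicate block, beside 18.8% of all genes. It was also 2 without knockdown replicate 1 or control replicate 3, beside 13.8% and 12.4%. Without control replicate 4 it was 1 (3.57%), beside 13.8%. Without knockdown replicate 3 or control replicate 2 it was 5 (17.9%), beside 21.0% and 15.4%. The Hoxd median was positive without knockdown replicate 3 or control replicate 1 or 2. The Hoxc count was 4 of 9 with the replicate block, beside 18.8% of all genes. It was 3 of 9 without knockdown replicate 1, control replicate 3 or control replicate 4 (Hoxc6, Hoxc12 and Hoxc13 in each), beside 13.8%, 12.4% and 13.8%. In passages 28 to 30 with the passage as a block it was 2 of 9, beside 9.73%, and 7 of 9 genes were positive. A cluster is a handful of neighbouring genes read on the same 8 arrays, so that the difference between clusters is given as a description and was not tested.

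By position along the clusters, 7 of the 8 genes were posterior. Paralog groups 9 to 13 held 7 of 16 genes (43.8%) with an unadjusted p under 0.05, all higher in the knockdown. Groups 5 to 8 held 1 of 10 and groups 1 to 4 held 0 of 11, beside 16.8% higher among all genes. For groups 9 to 13 the count was 5 of 16 (31.2%) with the replicate block, beside 18.8% of all genes. It was 4 of 16 (25.0%) without knockdown replicate 1 or control replicate 3, beside 13.8% and 12.4%. Without control replicate 4 it was 3 of 16 (18.8%), beside 13.8%. In passages 28 to 30 with the passage as a block it was 2 of 16 (12.5%), beside 9.73%. Groups 5 to 8 held 3 of 10 without control replicate 2 and 2 of 10 without knockdown replicate 4, beside 15.4% and 14.6%. Groups 1 to 4 held 3 of 11 without knockdown replicate 3, beside 21.0%. The medians of the log2 fold change were less far apart, at 0.10, 0.09 and 0.05 for these 3 stretches. Within the Hoxc cluster, the 5 genes of groups 9 to 13 had a median of 0.23 and 4 of them an unadjusted p under 0.05. The 5 Hoxd genes of the same groups had a median of -0.04 and 2 positive values. Posterior Hoxc genes thus had positive values and most posterior Hoxd genes did not, a difference that is given without a test. Among single paralog groups the median was highest in group 12 (0.26, Hoxc12 and Hoxd12) and lowest in group 1 (-0.02, Hoxb1 and Hoxd1).

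Hoxc12 and Hoxc13 lie side by side at the posterior end of the Hoxc cluster, and HOXC13 is known for its control of keratin genes in hair and nail. The signal of Hoxc12 was 8.88, 8.88, 8.94 and 9.27 on the knockdown arrays, replicates 1 to 4 in order, against 8.71, 8.69, 8.56 and 8.54 on the control arrays. All knockdown arrays lay above all control arrays, and replicate 4 stood above the other knockdown arrays. The log2 fold change of Hoxc12 was 0.37 (SE 0.10, 95% confidence interval 0.15 to 0.59), a 1.29-fold difference, with an adjusted p of 0.0495 from limma. With the block for the replicate number the adjusted p of Hoxc12 was 0.0791 (limma), so that its call was lost. It was also lost when any 1 of the 8 arrays was left out, with an adjusted p of 0.0505 to 0.134.

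Hoxc13 had signals of 8.99, 8.78, 8.66 and 9.04 in the knockdown arrays, and of 8.77, 8.19, 8.31 and 8.13 in the control arrays. The groups overlapped through control replicate 1 alone, which lay between knockdown replicates 3 and 2. The log2 fold change was 0.52 (SE 0.15, 95% confidence interval 0.18 to 0.86), which is 1.43-fold, and the adjusted p was 0.0669 from limma. With the replicate block the adjusted p of Hoxc13 was 0.0486 (limma), so that it passed where Hoxc12 did not and the count of Hox genes stayed at 1. Both genes were higher in the knockdown in 4 of 4 same-numbered pairs, by 0.17, 0.19, 0.39 and 0.73 for Hoxc12 and by 0.22, 0.59, 0.36 and 0.92 for Hoxc13 on the log2 scale. Without control replicate 1 Hoxc13 had a log2 fold change of 0.66 and an adjusted p of 0.014 (limma). It was then the 1 Hox gene that met the criterion of the study, as it also was without knockdown replicate 3 (0.59, adjusted p = 0.044). In these 2 fits the criterion called 681 and 829 of all genes, against 569 in the reported fit.

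Further towards the middle of the Hoxc cluster, 3 genes had an unadjusted p under 0.05. Hoxc10, which acts in the lumbar spinal cord and hindlimb, read 7.84, 7.66, 7.51 and 7.77 in the knockdown arrays, and 7.57, 7.51, 7.43 and 7.50 in the control arrays. Knockdown replicate 3 fell among the control arrays, and the log2 fold change was 0.19 (SE 0.08, adjusted p = 0.157 from limma). Hoxc9, which sets thoracic identity in motor neurons, read 8.27, 7.94, 7.97 and 7.92 in the knockdown arrays, and 7.69, 7.98, 7.75 and 7.75 in the control arrays. Knockdown replicate 1 stood above the rest, control replicate 2 lay above 3 knockdown arrays, and the log2 fold change was 0.23 (SE 0.10, adjusted p = 0.182 from limma). Hoxc6, which marks motor neurons at forelimb level, read 7.16, 7.08, 6.92 and 7.08 in the knockdown arrays, and 6.91, 6.91, 6.82 and 6.72 in the control arrays. Its groups did not overlap, although knockdown replicate 3 and control replicates 1 and 2 nearly met, and the log2 fold change was 0.21 (SE 0.07, adjusted p = 0.101 from limma).

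The other Hoxc genes gave smaller or less even differences. Hoxc11, which acts with its paralogs in the lumbosacral skeleton, had the lowest value of the cluster. It read 7.17, 7.11, 6.99 and 6.97 in the knockdown arrays and 6.96, 7.13, 7.02 and 6.91 in the control arrays, with a log2 fold change of 0.06 (SE 0.07) and groups that overlapped throughout. Hoxc4, an anterior gene of the neck vertebrae, had a log2 fold change of 0.23, as high as that of Hoxc9, but 2 of its knockdown arrays (6.81 and 6.62) lay above the control arrays (6.15 to 6.29) and 2 (6.23 and 6.17) among them, and the SE was 0.14. Hoxc5 and Hoxc8 had log2 fold changes of 0.12 and 0.07.

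In the Hoxa cluster, Hoxa9 had the highest value. Its product sustains blood stem and progenitor cells and acts in the posterior skeleton. Hoxa9 read 7.73, 7.50, 7.45 and 7.59 in the knockdown arrays, and 7.36, 7.39, 7.41 and 7.31 in the control arrays. All knockdown arrays lay above all control arrays, by 0.04 between the nearest arrays, and the log2 fold change was 0.20 (SE 0.07, adjusted p = 0.118 from limma). Hoxa13, which shapes the digits and the urogenital tract, had the lowest value of the cluster. It read 7.69, 7.53, 7.34 and 7.58 in the knockdown arrays and 7.45, 7.58, 7.52 and 7.59 in the control arrays, with a log2 fold change of 0.00073 (95% confidence interval -0.18 to 0.18). The other 8 Hoxa genes had log2 fold changes between 0.01 for Hoxa5 and 0.18 for Hoxa4, an anterior gene of the neck vertebrae whose interval reached from -0.02 to 0.37.

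In the Hoxb cluster, Hoxb13 had the highest value. It is the most posterior gene of the cluster, limits the growth of the tail and is used in the prostate. Hoxb13 read 8.36, 8.13, 7.97 and 8.11 in the knockdown arrays, and 7.83, 7.99, 7.76 and 7.91 in the control arrays. Control replicate 2 lay just above knockdown replicate 3, so that the groups overlapped at this point alone, and the log2 fold change was 0.27 (SE 0.09, adjusted p = 0.102 from limma). The lowest value was that of Hoxb4, a gene of the neck vertebrae known for its effect on blood stem cells, which read 7.55, 7.52, 7.38 and 7.51 in the knockdown arrays and 7.67, 7.63, 7.45 and 7.52 in the control arrays. Hoxb4 was the 1 Hox gene below its same-numbered control in 4 of 4 pairs, but the difference was small (log2 fold change -0.08, SE 0.07). Hoxb9, which acts on the ribs, had a log2 fold change of 0.10 and the widest SE of the family, 0.16. Control replicate 1 read 9.41 for it, the other control arrays 8.61 to 8.92 and the knockdown arrays 8.95 to 9.10. Without control replicate 1 all knockdown arrays lay above all remaining control arrays, and Hoxb9 was then among the genes with an unadjusted p under 0.05.

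The Hoxd genes lay on both sides of 0. Hoxd12, a gene of the digits, read 7.92, 7.71, 7.74 and 7.89 in the knockdown arrays, and 7.64, 7.73, 7.65 and 7.62 in the control arrays. Control replicate 2 lay above knockdown replicate 2, and the log2 fold change of Hoxd12 was 0.15 (SE 0.06, adjusted p = 0.175 from limma). Its neighbour Hoxd13, whose loss malforms the digits, had a log2 fold change of -0.04 (SE 0.06), with 7.62 to 7.78 in the knockdown arrays and 7.71 to 7.85 in the control arrays. Hoxd10, which acts in lumbar motor neurons, had the lowest value of all Hox genes. It read 7.92, 7.87, 7.51 and 7.47 in the knockdown arrays and 8.19, 7.85, 7.78 and 7.58 in the control arrays, with a log2 fold change of -0.16 (SE 0.15). The spread within each group was wider than the difference between the groups. The value ran from -0.25 without control replicate 4 to -0.04 without control replicate 1. In passages 28 to 30 with the passage as a block it was -0.32 (unadjusted p = 0.00662, adjusted p = 0.134 from limma). Hoxd11, a gene of the forearm and kidney, had a log2 fold change of -0.08 (SE 0.09).

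**Figure D3:**
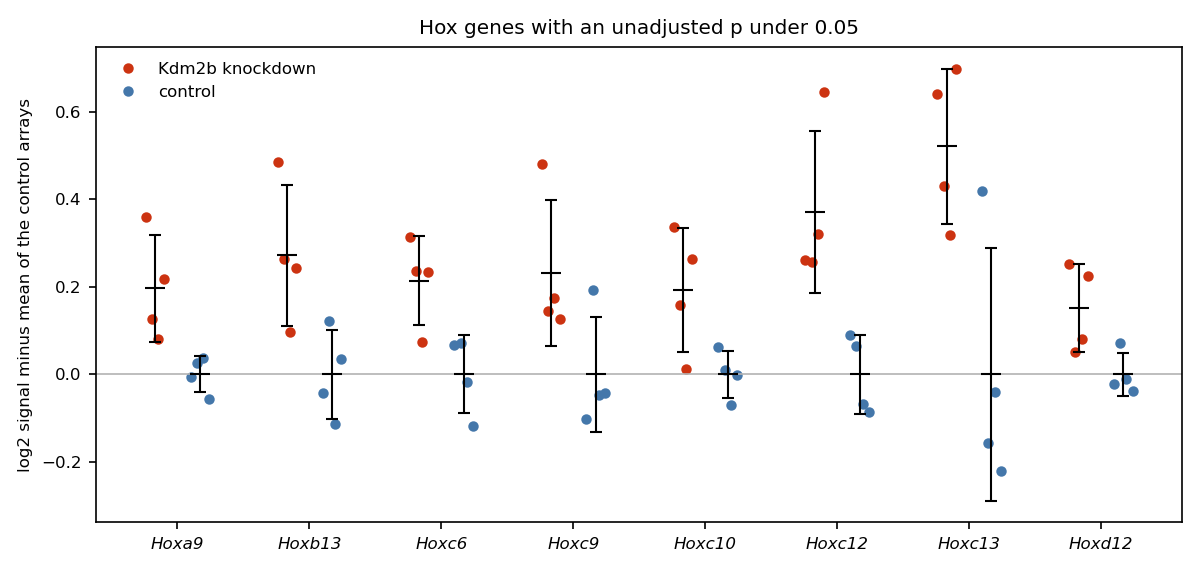
Log2 signal minus the mean of the control arrays (vertical axis) for the 8 Hox genes with an unadjusted p under 0.05 (horizontal axis). Points are arrays, in the order of their replicate number from left to right within a group, and black marks are the mean and SD (n = 4 per group). The groups do not overlap for Hoxa9, Hoxc6 and Hoxc12, and for Hoxc13 control replicate 1 lies among the knockdown arrays.

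The groups did not overlap for 3 of 37 Hox genes, Hoxa9, Hoxc6 and Hoxc12, all higher in the knockdown. This is 8.11%, against 11.8% of all genes separated in this direction and 9.18% separated in the other, and against 10.7% and 4.58% in the signal range of the family. An exact two-sided permutation test of a single gene reaches its smallest p of 0.0286 only for such genes, and 0 other Hox genes were under 0.05 by it. By pairs of the same replicate number, 12 Hox genes were higher in the knockdown in 4 of 4 pairs and 11 in 3 of 4. The number of Hox genes with a positive difference was 32, 22, 24 and 25 in pairs 1 to 4. Pairs were not counted over all genes, so that these counts describe the Hox genes only. Of the genes in the signal range, 74.9% had a positive log2 fold change.

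The Hox values also moved together from array to array. Knockdown replicate 1 had the highest of the 8 values for 22 of 37 Hox genes, and control replicates 3 and 4 had the lowest for 14 and 12. The median Hox difference from the control mean was 0.20, 0.11, -0.02 and 0.04 in knockdown replicates 1 to 4. All genes in the signal range of the family had medians of 0.17, 0.08, -0.01 and 0.04 on the same arrays, and knockdown replicate 1 was the highest array for 49.2% of them. The order of the knockdown arrays was therefore shared with other genes of like brightness. That of the control arrays was shared in part only. Control replicates 3 and 4 were the lowest array for 23.3% and 12.3% of the genes in the range. Control replicate 1 was the lowest for 23.6% of them, but for 1 Hox gene. The medians of control replicates 1 and 4 were 0.03 and -0.04 over the Hox genes, and -0.02 and -0.0043 over the genes in the range. Without knockdown replicate 1, 25 of 37 Hox genes had a positive log2 fold change. The median was then 0.06 over the Hox genes and 0.02 over all genes. In that fit 5 Hox genes (13.5%) were higher at an unadjusted p under 0.05, beside 13.8% of all genes. They were Hoxa9, Hoxb13, Hoxc6, Hoxc12 and Hoxc13. The Hoxc genes alone had medians of 0.32, 0.16, 0.01 and 0.23 on the knockdown arrays, against 0.06, 0.06, -0.05 and -0.09 on the control arrays.

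**Figure D4:**
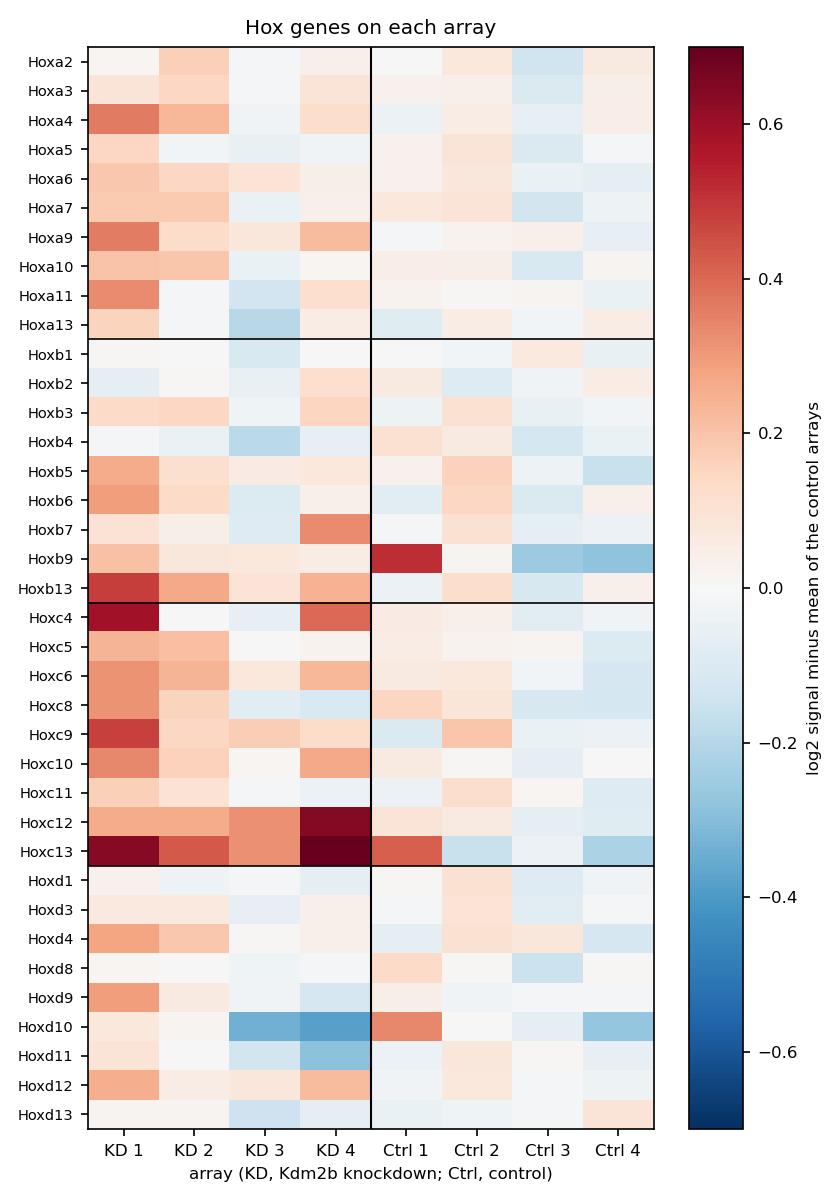
Log2 signal of each Hox gene (rows, by cluster from Hoxa to Hoxd) on each array (columns, knockdown then control), minus the mean of its control arrays. Red is above and blue below that mean, and the column of knockdown replicate 1 holds the highest value for 22 of 37 genes.

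KDM2B recognises CpG, and the promoter sequences of the RefSeq table (GRCm38.p6) were therefore read for their CpG content. Of the 37 genes, 21 have an entry. That is too few for a check of CpG content over the family, which is void and was not made. Of the 8 genes with an unadjusted p under 0.05, Hoxa9 and Hoxd12 have one. The 250 bases before their starts are shown beside those of Hoxa13 and Hoxd13, which end the same clusters and had log2 fold changes near 0, with each CG in capitals. The windows are chr6:52227371-52227620 (minus strand) for Hoxa9, chr2:74674763-74675012 (plus strand) for Hoxd12, chr6:52260881-52261130 (minus strand) for Hoxa13 and chr2:74667975-74668224 (plus strand) for Hoxd13.
Hoxa9: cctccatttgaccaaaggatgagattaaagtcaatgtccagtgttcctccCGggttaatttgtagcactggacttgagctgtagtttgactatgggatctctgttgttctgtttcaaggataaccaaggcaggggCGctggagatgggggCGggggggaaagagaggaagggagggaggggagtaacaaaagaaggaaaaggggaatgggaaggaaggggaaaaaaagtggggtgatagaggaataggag
Hoxd12: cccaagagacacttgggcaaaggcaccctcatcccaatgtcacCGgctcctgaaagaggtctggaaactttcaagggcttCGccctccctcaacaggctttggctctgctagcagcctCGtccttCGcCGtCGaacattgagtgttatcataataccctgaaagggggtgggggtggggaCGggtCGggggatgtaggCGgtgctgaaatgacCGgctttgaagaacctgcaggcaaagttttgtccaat
Hoxa13: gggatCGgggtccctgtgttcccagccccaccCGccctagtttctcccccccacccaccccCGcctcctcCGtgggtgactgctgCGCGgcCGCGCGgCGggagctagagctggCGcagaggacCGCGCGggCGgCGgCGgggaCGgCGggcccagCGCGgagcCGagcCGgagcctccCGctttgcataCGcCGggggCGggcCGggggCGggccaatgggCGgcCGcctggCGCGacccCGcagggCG
Hoxd13: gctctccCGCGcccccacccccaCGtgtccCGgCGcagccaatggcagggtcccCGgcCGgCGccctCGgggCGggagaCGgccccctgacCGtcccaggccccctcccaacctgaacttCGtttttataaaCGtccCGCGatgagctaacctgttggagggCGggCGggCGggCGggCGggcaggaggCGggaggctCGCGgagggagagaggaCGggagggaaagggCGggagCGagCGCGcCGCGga

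CG, which reads the same on both strands, occurs 3 times in the window of Hoxa9, 10 times in that of Hoxd12, 35 times in that of Hoxa13 and 31 times in that of Hoxd13. At least as many are held by 71.0%, 37.8%, 2.97% and 5.19% of the 32851 promoter windows of the table, whose median is 6. The median of the 23 Hox promoter windows is 13. The 4 genes were picked with their values known, so that no relation of CpG count to fold change can be read from them. The counts describe these windows only.

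Several noncoding RNAs lie within the Hox clusters, among them the miR-10 and miR-196 genes, whose products are known to target Hox mRNAs. Of 10 with a probe set of their own, 1 was higher at an adjusted p under 0.05 and 0 were lower, beside 5.93% and 4.8% of all genes, with a median log2 fold change of 0.07. It was Mir196a-1, which lies between Hoxb13 and Hoxb9. Mir196a-2, between Hoxc10 and Hoxc9, codes for the same mature miRNA, and Mir196b lies between Hoxa10 and Hoxa9. The mature sequences from RefSeq (GRCm38.p6) are shown because these genes fall into 2 seed families, with the seed (bases 2 to 8) in capitals.
mmu-miR-196a-5p: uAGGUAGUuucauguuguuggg
mmu-miR-196b-5p: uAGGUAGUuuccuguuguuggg
mmu-miR-10a-5p: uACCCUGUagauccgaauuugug
mmu-miR-10b-5p: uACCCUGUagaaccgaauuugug

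Mir196a-1 read 7.22, 7.36, 7.48 and 7.45 in the knockdown arrays, and 7.12, 7.01, 6.75 and 6.78 in the control arrays. All knockdown arrays lay above all control arrays, and the log2 fold change was 0.46 (SE 0.10, adjusted p = 0.0274 from limma). With the replicate block its adjusted p was 0.0593 (limma), and the call also failed when knockdown replicate 2 or 4, or control replicate 2, 3 or 4, was left out. Mir196b, of the same seed, read 7.49, 7.53, 7.40 and 7.55 in the knockdown arrays, and 7.25, 7.41, 7.27 and 7.28 in the control arrays, and the groups overlapped at knockdown replicate 3 and control replicate 2 (log2 fold change 0.19, SE 0.06, adjusted p = 0.091 from limma). Mir196a-2 had a log2 fold change of 0.04 (SE 0.11), so that the 2 genes of one mature sequence gave different values. Mir10a and Mir10b, whose seed is shared, had log2 fold changes of 0.08 and 0.12. These probe sets are annotated to the miRNA genes, and which of mature, hairpin and host transcripts they read was not tested.

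Of 13 measured genes just outside the clusters, 0 were higher and 2 lower at an adjusted p under 0.05, beside 5.93% and 4.8% of all genes, and the median log2 fold change was -0.11. Values were positive for 4 of the 13, up to 0.15 for the DNA repair gene Smug1. The flanking genes with such a fall were Cbx5, near the Hoxc cluster, which codes for the heterochromatin protein HP1 alpha (-0.49, SE 0.06, adjusted p = 0.00418 from limma), and Snx11, near the Hoxb cluster, which codes for a sorting nexin (-0.38, SE 0.08, adjusted p = 0.0249 from limma). Cbx5 read 12.69 to 12.79 in the knockdown arrays and 13.14 to 13.34 in the control arrays. Flanking genes had brighter probe sets than the Hox genes in part, with mean log2 signals of 6.98 to 13.02. With the replicate block the most significant of 2 probe sets of Hibadh, which codes for an enzyme of valine breakdown, also passed as lower. Its value was -1.01 (adjusted p = 0.044, against 0.0528 without the block, limma), and the mean over both probe sets was -0.48. The call on Snx11 failed when the same arrays were left out 1 at a time as for Mir196a-1.

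Of 9 ParaHox, Evx and Mnx genes, which are homeobox genes related to the Hox clusters, 3 were higher at an adjusted p under 0.05 and 0 were lower, beside 5.93% and 4.8% of all genes, with a median log2 fold change of 0.12. Gsx2, which patterns the ventral forebrain, read 8.47, 8.30, 8.14 and 8.44 in the knockdown arrays, and 7.80, 7.88, 7.86 and 7.84 in the control arrays (log2 fold change 0.49, SE 0.08, adjusted p = 0.00931 from limma). The lowest knockdown array stood clear of the highest control array, and the call held without any 1 array. Cdx4, an activator of posterior Hox genes, read 6.39 to 6.46 in the knockdown arrays and 6.07 to 6.25 in the control arrays (0.26, adjusted p = 0.0304). Gsx1, a neural paralog of Gsx2, read 8.52 to 8.72 in the knockdown arrays and 8.30 to 8.40 in the control arrays (0.26, adjusted p = 0.0379, with the replicate block 0.0616, all from limma). The calls on Cdx4 and Gsx1 were lost in 6 and 7 of the 8 fits that left out 1 array. Cdx2, which also activates posterior Hox genes, had a log2 fold change of -0.14 (SE 0.12), and Evx1 and Evx2, which border the Hoxa and Hoxd clusters, had 0.000393 and 0.12.

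Hox proteins bind DNA together with TALE homeodomain partners of the PBX, MEIS and PKNOX families. Of 8 measured partners, 1 was higher at an adjusted p under 0.05 and 0 were lower, beside 5.93% and 4.8% of all genes. This was Pbx3, with 11.21 to 11.33 in the knockdown arrays and 10.72 to 11.03 in the control arrays (log2 fold change 0.41, SE 0.08, adjusted p = 0.0197 from limma), and its call failed when knockdown replicate 2 or 4, or control replicate 2, was left out. Meis1, the partner of HOXA9 in blood cells, had a log2 fold change of -0.02 (SE 0.06).

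Retinoic acid switches on Hox genes from the anterior end of the clusters. Of 17 genes of its pathway, 0 were higher and 3 lower at an adjusted p under 0.05, beside 5.93% and 4.8% of all genes. With the replicate block 2 were higher as well, beside 7.95% of all genes in that fit. They were Crabp1, which codes for a retinoic acid binding protein (0.36, adjusted p = 0.0291), and Rxra, a nuclear receptor (0.28, adjusted p = 0.0423, both from limma). Rxrg, a nuclear receptor, read 7.40, 7.47, 8.19 and 7.61 in the knockdown arrays, and 8.21, 8.55, 9.24 and 9.14 in the control arrays (log2 fold change -1.11, SE 0.26, adjusted p = 0.0348 from limma). The groups of Rxrg nearly met at knockdown replicate 3 and control replicate 1, and it was the 1 gene of the pathway that met the criterion of the study. Rdh10, which oxidises retinol, fell by 0.49 on the log2 scale (adjusted p = 0.0144), and Crabp2, which carries retinoic acid into the nucleus, fell by 0.27 (adjusted p = 0.0288, both from limma). The calls on Rxrg, Rdh10 and Crabp2 were lost in 6, 1 and 5 of the 8 fits that left out 1 array. The direct retinoic acid targets Rarb (0.14, SE 0.09) and Cyp26a1 (-0.07, SE 0.09) did not pass the test.

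MLL proteins keep Hox genes active by methylating histone H3, and of 9 genes of these complexes 0 were higher and 1 was lower at an adjusted p under 0.05, beside 5.93% and 4.8% of all genes. This was Kmt2b (log2 fold change -0.32, SE 0.06, adjusted p = 0.0198 from limma), while its relative Kmt2a had 0.02. Of 12 genes of the KDM2B complex and of PRC2, the polycomb complex that methylates histone H3, 1 was higher and 1 lower. The lower gene was Kdm2b itself and the higher one was Bcorl1, which codes for a corepressor (0.48, SE 0.10, adjusted p = 0.0277 from limma). The calls on Kmt2b and Bcorl1 were lost in 5 and 6 of the 8 fits that left out 1 array. Rnf2, which codes for RING1B, and Ezh2 had log2 fold changes of -0.05 and -0.12 and did not pass the test. All knockdown arrays of Ezh2 lay below its control arrays. All those of Suz12, also of PRC2, lay above (0.18, adjusted p = 0.0857, limma). The most significant of 2 probe sets of Eed, of PRC2, had -0.41 (adjusted p = 0.0818, limma), and the mean over both was -0.28.

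**Figure D5:**
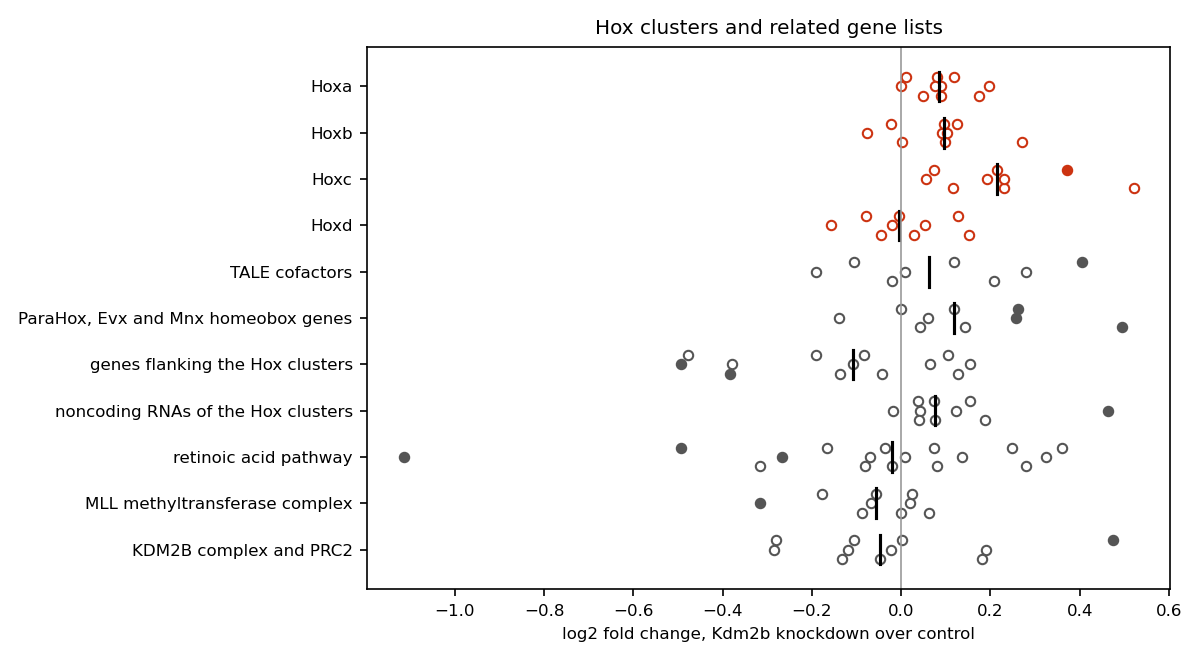
Log2 fold change of knockdown over control (horizontal axis) for the genes of each Hox cluster (red) and of 7 related gene lists (grey). Filled points have an adjusted p under 0.05 (limma), the black line is the median of a list, Kdm2b is left out of the lowest row, and 1 of the 37 Hox points is filled, that of Hoxc12.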

How the data were processed

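The authors deposited log2 values that they had made from the probe intensities of the 8 arrays with RMA in oligo 1.18.1, as the methods and the submitters' processing notes state. The genome build behind the probe sets is not given in the sources used here. Probe sets were named through the platform annotation, with symbols updated through the RefSeq table for GRCm38.p6. Of 35556 probe sets, 21789 name 1 gene, and the 1621 that name several were used to name none. Some genes are not reported here.

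The 4 knockdown and 4 control arrays, grouped by their labels, were compared with limma 3.58.1 in R 4.3.3 (lmFit, eBayes), two-sided, with Benjamini-Hochberg adjustment over all probe sets. A gene's log2 fold change in medians is the mean over its probe sets. Same-numbered arrays were collected in parallel, and their deviations from the group means correlated at 0.239, 0.118, 0.355 and 0.222, against -0.231 to 0.0747 between different numbers, so that the numbers were taken as pairs. The fit without this block is reported, and the blocked value is given where it changes a call. Replicates 1 to 4 were of passages 27, 28, 29 and 30 in the knockdown and 28, 29, 30 and 31 in the control. Group and passage thus cannot be told apart within same-numbered pairs. Full values were given for Hox genes with an unadjusted p under 0.05 and for the lowest and highest of each cluster, and of each list for members with an adjusted p under 0.05 or of known bearing on Hox genes. Hoxb9, Hoxc4, Hoxc5, Hoxc8, Hoxd11, Hoxd13, Mir196a-2, Mir10a, Mir10b, Evx1, Evx2, Kmt2a, Rnf2, Ezh2, Suz12 and Eed were added after their values were seen. The members and lists were chosen with earlier results of these data known. The scripts were tested on simulated data, and figures were drawn with matplotlib 3.10.9.

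The alternatives were the replicate block, each array left out, arrays centred on their medians, a trended and robust prior, and probe sets under a mean of 7 left out. Others were only probe sets that name 1 gene, only passages 28 to 30 with the passage as a block, and an exact permutation test over the 70 divisions of the arrays. The passage block set knockdown replicates 2, 3 and 4 against control replicates 1, 2 and 3, and not against the same-numbered arrays. Fewer arrays and another block thus came together in that fit.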

Additional observations from a re-analysis of the deposited data

Results flagged for a closer look

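In 7 of 76 groups of 4 arrays (each Hox gene and Kdm2b in the knockdown and in the control), 1 array stood apart from the other 3 by more than the critical value of Dixon at 95%, which chance gives in about 1 in 20 groups. Knockdown replicate 4 was high for Hoxc12, at 9.267 against 8.881 to 8.944 in the other knockdown arrays, and without it the adjusted p of Hoxc12 was 0.0684 from limma. Knockdown replicate 1 was high for Hoxc9, at 8.272 against 7.919 to 7.965, and for Hoxb9, at 9.1 against 8.949 to 8.974. Knockdown replicate 3 was low for Hoxb1, at 8.614 against 8.722 to 8.734, and for Hoxb3, at 8.886 against 9.053 to 9.065. Control replicate 3 was low for Hoxa3, at 6.758 against 6.89 to 6.902 in the other control arrays, and for Hoxa10, at 7.799 against 7.93 to 7.954.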

How the results depend on the processing

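The Kdm2b fall kept its call under each alternative run. Over the alternatives the median log2 fold change ran from 0.0423 to 0.134 for the family, 0.0493 to 0.13 for Hoxa and 0.0373 to 0.142 for Hoxb. For Hoxc it ran from 0.134 to 0.253 and for Hoxd from -0.0481 to 0.0245. Each stayed within 1 SD between arrays (0.0785, 0.0817, 0.0765, 0.107 and 0.0532) of the reported median. These fits share most or all of their arrays with the reported one, so that this limit could hardly be passed. The replicate block moved the adjusted call from Hoxc12 to Hoxc13 (the count stayed at 1, beside 7.95% of all genes higher). It left 6 Hox genes (16.2%) higher at an unadjusted p under 0.05, without Hoxc9 and Hoxd12, beside 18.8% of all genes. The number of Hox genes with an adjusted p under 0.05, all higher, was 0 to 4 when 1 array was left out. Over these fits 1.93% to 9.3% of all genes were higher. The 4 came without knockdown replicate 3 (Hoxb13, Hoxc6, Hoxc10 and Hoxc13), beside 9.3% of all genes. The number was 0 with arrays centred on their medians, beside 5.34%. With only probe sets that name 1 gene it was 2 (Hoxc12 and Hoxc13), beside 8.28%. In passages 28 to 30 it was 0, beside 0.466%. The study's criterion gave 0 to 1 when 1 array was left out (1 without knockdown replicate 3 and 1 without control replicate 1). In these 2 fits it called 829 and 681 of all genes, against 569 in the reported fit. Hox genes higher at an unadjusted p under 0.05 numbered 4 to 10 when 1 array was left out (5 without knockdown replicate 1 or control replicate 3, 4 without control replicate 4), 2 in passages 28 to 30, where 1 (Hoxd10) was lower, and 3 by the exact permutation test, against 11.8% of all genes. Hoxc12 and Hoxc13 had adjusted p of 0.0262 to 0.242 and 0.014 to 0.279 over the alternatives. The log2 fold change of Hoxa13 ran from -0.0502 (without knockdown replicate 1) to 0.0652 (without knockdown replicate 3), was also negative without knockdown replicate 4 (-0.0156) or control replicate 1 (-0.0282) or 3 (-0.00500), with centred arrays (-0.0181) and in passages 28 to 30 (-0.0323), and Hoxc11 was negative in passages 28 to 30 (-0.0124). Apart from the fits with fewer arrays, the cause was not tested. The number of arrays limits the precision.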
